A study of Mus musculus with 12 samples.

Results

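Genes that mark bile duct cells and hepatoblasts were examined in fetal mouse liver at 18.5 days post coitum, in wild type fetuses and in fetuses with both macroH2A1 and macroH2A2, histone H2A variants with a large extra domain, knocked out. The list was Krt19, Krt7, Sox9, Sox4, Epcam, Spp1, Cldn4, Pdgfa, Pkhd1 and Cdh6, taken by symbol from the platform's gene table. A probe set was listed for 9 of the 10, 1 each, among 19935 genes with a probe set of their own. Spp1, which encodes osteopontin, was unnamed in that table and is not analysed here. Each genotype was measured on 6 arrays with replicate numbers 1 to 6, strain 129/S6, and no treatment. The fetuses came from early embryos of the 2 genotypes, which were mixed before transfer to wild-type females. Every value is from whole liver, in which duct cells are few. In such a bulk sample, fewer cells of a type and less RNA per cell cannot be told apart.

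Ducts of the liver form from hepatoblasts, the common precursors of hepatocytes and bile duct cells. Hepatoblasts next to the portal vein receive Notch and TGF-beta signals from the portal mesenchyme, switch on Sox9 and form the ductal plate, parts of which become ducts around birth. Duct cells then carry keratins 7 and 19, the adhesion protein Epcam and a primary cilium, in which the Pkhd1 product works.

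The labelled knockout was visible for 1 of the targeted genes. Macroh2a1 fell, at a log2 value of 10.36 ± 0.13 in wild type against 9.59 ± 0.06 without the gene (SD, n = 6 each, limma adjusted p = 3.5e-05). Macroh2a2 measured 9.30 ± 0.15 and 9.21 ± 0.28 (limma adjusted p = 0.99). The positions of these probes with respect to either deletion were not analysed here. As a tissue check, the hepatocyte products Alb and Apoa1 lay between 13.91 and 14.29 on all 12 arrays, where array medians were 7.55 to 7.61. The labelled sex was not borne out on any array. All fetuses are labelled male, yet Xist, which is transcribed from the inactive X chromosome, lay between 12.91 and 13.08 on the 12 arrays. The Y-linked genes Kdm5d, Uty and Eif2s3y lay between 5.01 and 5.24, 4.65 and 4.99, and 4.08 and 4.22, near the lowest value in the table, 3.73. Both genotypes gave this pattern, and no comparison here used the label. Wild-type replicate 6 stood apart, with a mean of 7.55 for 20 intestine and stomach genes against 6.94 to 7.07 on the other wild-type arrays. Where leaving it out moved a result of the members, the value without it is given too.

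None of the 9 measured genes passed the test between the genotypes, limma with adjustment over all genes at 0.05. The background was 3 of 19935 genes, or 0.0150%, namely Macroh2a1, Pip5k1b and Pyurf. At unadjusted p under 0.05, 1 member, Cdh6, was counted, against 3.93% of all genes. The double-knockout mean was the higher for 7 members and the lower for Krt19 and Epcam, where 59.0% of all genes had higher means in the double knockout. The median log2 difference (double knockout minus wild type) was 0.04 over the members and 0.01 over all genes. The adjusted p was at least 0.99 for each of the 9. Some members gave low signals. By rank among all genes on each array, Cdh6 lay between percentiles 38.7 and 45.9, and Cldn4 between 37.3 and 43.9. Pkhd1 lay between 38.3 and 44.1, and Epcam between 26.7 and 40.9. Whether these signals lie above background was not tested.

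Upstream sequences are shown for Krt7, Epcam and Cdh6, because these 3 had the highest r with Krt19 across arrays among the members with a sequence at hand. RefSeq promoters of build GRCm38.p6 matched 8 of the 10 symbols. Krt19 and Sox9 are not among them. Each sequence is the 250 bases before the annotated start, 5′ to 3′ on the gene's strand, at chr15:101412153-101412402 (plus strand) for Krt7, chr17:87635729-87635978 (plus strand) for Epcam and chr15:13173676-13173925 (minus strand) for Cdh6. Capitals mark the GC box GGGCGG and the SOX core ACAAAG or ACAATG, read on either strand.
Krt7: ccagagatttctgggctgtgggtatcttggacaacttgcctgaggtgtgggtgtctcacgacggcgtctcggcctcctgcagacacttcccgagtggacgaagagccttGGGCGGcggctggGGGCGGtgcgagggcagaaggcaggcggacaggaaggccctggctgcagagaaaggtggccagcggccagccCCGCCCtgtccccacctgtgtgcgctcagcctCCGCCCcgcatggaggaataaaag
Epcam: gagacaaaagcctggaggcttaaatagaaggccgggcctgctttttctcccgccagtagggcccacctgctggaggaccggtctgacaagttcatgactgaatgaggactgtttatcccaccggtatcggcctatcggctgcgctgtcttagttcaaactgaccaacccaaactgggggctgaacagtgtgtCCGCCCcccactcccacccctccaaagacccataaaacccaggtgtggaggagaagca
Cdh6: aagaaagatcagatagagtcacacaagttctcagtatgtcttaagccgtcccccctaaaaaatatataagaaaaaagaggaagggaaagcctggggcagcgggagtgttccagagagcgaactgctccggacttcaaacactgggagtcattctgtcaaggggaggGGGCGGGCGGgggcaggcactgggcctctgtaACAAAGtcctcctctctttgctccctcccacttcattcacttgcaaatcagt
The Krt7 sequence held 4 GC boxes, that of Epcam 1, and that of Cdh6 2 that overlap and 1 SOX core. Of 32851 mouse promoters cut to the same length, 32.7% held a GC box and 25.2% a SOX core. The RBPJ core TGGGAA, the motif of the Notch effector, was in none of the 3 and in 21.6% of all promoters, and the TATA box TATAAA was in none of the 3 and in 12.4%. GC content was 66.0%, 56.4% and 51.2% in the order printed, with a median of 52.4% over all promoters.

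**Figure D1:**
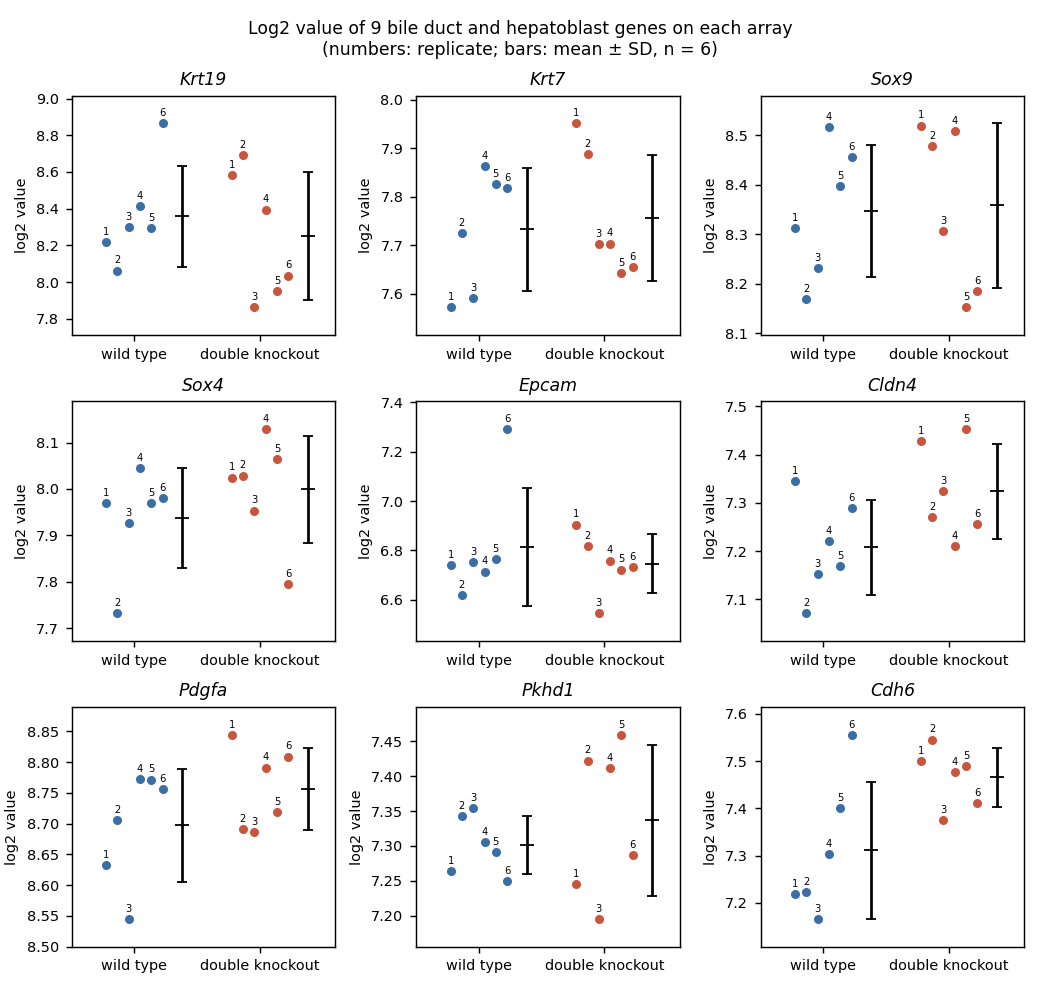
Log2 value of each of the 9 measured genes (vertical axes) on every array, wild type in blue and double knockout in red, with replicate numbers beside the points and the mean ± SD (n = 6) in black. The genotypes overlap in every panel, and wild-type replicate 6 is the highest array for Krt19 (8.87), Epcam (7.29) and Cdh6 (7.56).

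Among the regulators, Sox9, the transcription factor that first marks the ductal plate, lay between 8.17 and 8.52 in wild type (log2 value, median 8.35) and between 8.15 and 8.52 in the double knockout (median 8.39). The lowest and the highest array both belonged to the double knockout, and the 2 groups covered almost the same span. Double knockout minus wild type came to 0.01 on the log2 scale with a standard error of 0.08 (n = 6 each, 95% interval -0.16 to 0.18), or a fold of 0.90 to 1.13. Its sign turned when any of 5 arrays was left out. Sox4, a related factor that acts with Sox9 in duct formation, lay between 7.73 and 8.04 in wild type (median 7.97) and between 7.80 and 8.13 in the double knockout (median 8.03). Wild-type replicate 2 and double-knockout replicate 6 were its lowest arrays and the others lay at 7.93 or above. Its log2 difference of 0.06 had a 95% interval of -0.07 to 0.19 (limma unadjusted p = 0.33).

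Krt19, which encodes a keratin of simple epithelia and is the usual duct cell marker, was the most variable member. Its log2 values ran from 8.06 to 8.87 in wild type (median 8.30) and from 7.86 to 8.69 in the double knockout (median 8.21). Wild-type replicate 6 and double-knockout replicates 2 and 1 were high, and double-knockout replicates 3, 5 and 6 were the 3 lowest of the 12 arrays. The highest array was 2.01-fold above the lowest, and 1.72% of genes had a larger SD within genotypes. Between genotypes it differed by -0.11 on the log2 scale with a standard error of 0.15 (n = 6 each). The 95% interval, -0.43 to 0.22, spans folds of 0.74 to 1.17 and was the widest among the members. Without wild-type replicate 6 it was -0.0045, and without double-knockout replicate 2 it was -0.19.

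Krt7, the keratin that pairs with Krt19 in duct cells, ran from 7.57 to 7.86 in wild type (median 7.77) and from 7.64 to 7.95 in the double knockout (median 7.70). Double-knockout replicates 1 and 2 lay above all wild-type arrays and the other 4 within the wild-type range. The difference was 0.02 in log2 (95% interval -0.12 to 0.17), and it turned sign when any of 4 arrays was left out, replicates 1 and 3 of the wild type and 1 and 2 of the double knockout.

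Of the adhesion and junction genes, Epcam, a surface protein of epithelia that hepatoblasts and duct cells keep and mature hepatocytes lose, ran from 6.62 to 7.29 in wild type (median 6.75) and from 6.55 to 6.90 in the double knockout (median 6.75). Wild-type replicate 6 was alone at the top, and the other 11 arrays lay within 6.55 to 6.90. The genotypes differed by -0.07 in log2 (95% interval -0.27 to 0.14), and by 0.03 without that array.

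Cldn4, a tight junction claudin, ran from 7.07 to 7.35 in wild type (median 7.19) and from 7.21 to 7.45 in the double knockout (median 7.30). Double-knockout replicates 1 and 5 were above every wild-type array, and the other 4 overlapped with wild type. The double-knockout mean was 0.12 higher in log2 with a standard error of 0.06 (n = 6 each) and a 95% interval of -0.0042 to 0.24 (limma unadjusted p = 0.058, adjusted p = 0.99). It ranged from 0.09 to 0.14 over the fits without 1 array, and was 0.13 without wild-type replicate 6 (limma unadjusted p = 0.041, adjusted p = 0.80). Limma's unadjusted p was under 0.05 in 7 of the 20 alternatives run for this gene, and ran from 0.023 to 0.14.

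Cdh6, a cadherin of ductal plate and kidney tubule precursors, ran from 7.17 to 7.56 in wild type (median 7.26) and from 7.38 to 7.55 in the double knockout (median 7.48). Wild-type replicate 6 was the highest of all 12 arrays, while 5 of the 6 double-knockout arrays lay above the other 5 wild-type arrays. Its double-knockout mean was 0.16 higher in log2 with a standard error of 0.06 (n = 6 each), or 1.11-fold, with a 95% interval of 0.02 to 0.29 (limma unadjusted p = 0.024, adjusted p = 0.99). It ranked 365th by p among all genes. Without wild-type replicate 6 the difference was 0.20 (limma unadjusted p = 0.0011, adjusted p = 0.63). It was positive in all 20 alternatives run for this gene, between 0.11 and 0.21, with adjusted p from 0.57 to 1. Limma's unadjusted p ranged from 0.00071 to 0.062 and was under 0.05 in 16 of the 20. Leaving out 1 array, any of wild-type 1, 2 and 3 or double-knockout 2, gave 0.0525 to 0.0624. The lowest difference, 0.11 (limma unadjusted p = 0.048), came with the mean of an exocrine pancreas list as a covariate. That list had higher means in the double knockout for all 20 measured genes of 25 listed. The 4 arrays with the lowest pancreas means, 7.20 to 7.57, were replicates 1, 2 and 3 of the wild type plus replicate 3 of the double knockout, and there Cdh6 measured 7.17 to 7.38. On the other 8 arrays, with pancreas means of 8.32 to 9.96, Cdh6 measured 7.30 to 7.56, and its r with the pancreas mean was 0.05. Over all 12 arrays that r was 0.73 (permutation p = 0.0096, adjusted p = 0.089). The rho was 0.62 (permutation p = 0.035, adjusted p = 0.245). Within wild type r was 0.88 and within the double knockout 0.46.

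Pdgfa, a growth factor ligand for mesenchymal cells, ran from 8.54 to 8.77 in wild type (median 8.73) and from 8.69 to 8.84 in the double knockout (median 8.75). Double-knockout replicates 1, 4 and 6 were above every wild-type array and the other 3 within their range. Pdgfa differed by 0.06 in log2 (95% interval -0.05 to 0.16, limma unadjusted p = 0.25). Pkhd1, which encodes fibrocystin, a protein of the duct cell cilium, ran from 7.25 to 7.35 in wild type (median 7.30) and from 7.20 to 7.46 in the double knockout (median 7.35). Its 6 wild-type arrays lay close together, and the double-knockout arrays lay on both sides of them, 3 above and 2 below. Pkhd1 differed by 0.04 in log2 (95% interval -0.07 to 0.14), or folds of 0.95 to 1.10.

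**Figure D2:**
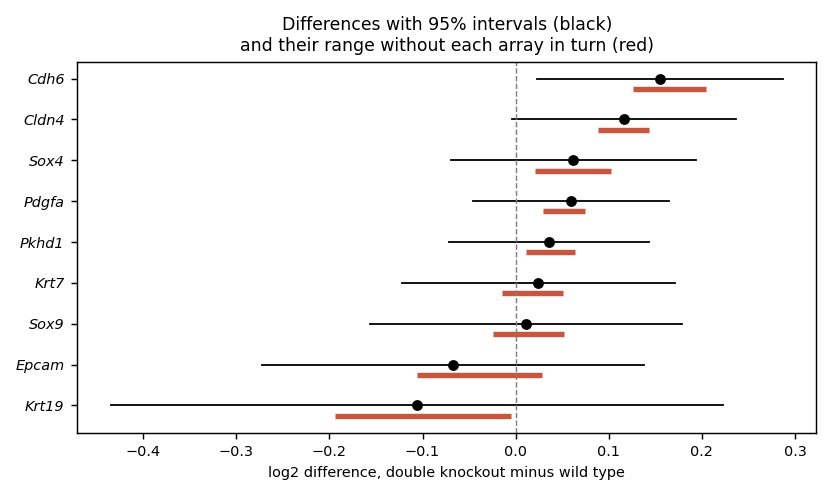
Log2 difference, double knockout minus wild type (horizontal axis), for the 9 measured genes, with 95% intervals from limma in black and the range of the difference over the 12 fits without 1 array in red. The interval of Cdh6, 0.02 to 0.29, lies above 0 before adjustment, and that of Krt19, -0.43 to 0.22, is the widest.

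The members were next compared with each other across arrays, over 36 pairs. Krt19 and Epcam gave the 1 Pearson r past the threshold, while their rho missed it (r = 0.82, permutation p = 8e-05, adjusted p = 0.0029; Spearman rho = 0.79, permutation p = 0.0035, adjusted p = 0.079; 12 arrays). Their r was 0.83 within the double knockout and 0.95 within wild type, where it was 0.69 on the 5 arrays other than replicate 6. Over the 11 arrays without that replicate it was 0.80, and 0.72 when double-knockout replicate 3 was left out as well. No other pair passed after adjustment. Sox9 followed Krt19 with r = 0.77 (permutation p = 0.0042, adjusted p = 0.076; rho = 0.78, permutation p = 0.0044, adjusted p = 0.079), and r was 0.88 without the same 2 arrays. Sox9 and Krt7 gave r = 0.74 (permutation p = 0.0090, adjusted p = 0.11; rho = 0.71, permutation p = 0.014, adjusted p = 0.16), and 0.64 without double-knockout replicates 1 and 2. Once each genotype's mean was removed, Krt19 had r = 0.81 with Epcam, 0.79 with Sox9, 0.72 with Cdh6 and 0.67 with Krt7, but 0.13 with Cldn4 and 0.04 with Pkhd1. Wild-type replicate 6 was highest for both Krt19 and Cdh6, and leaving it out gave 0.55 for that pair. With genotype means kept, Krt19 and Cdh6 gave r = 0.46 (permutation p = 0.14, adjusted p = 0.34; rho = 0.47, permutation p = 0.13, adjusted p = 0.37), and 0.35 without wild-type replicate 6 and double-knockout replicate 3. With genotype means removed, the highest r of Cldn4 or Pkhd1 with any member was 0.41, that of Cldn4 with Sox4. Of the 9 members, 8 were above their own 12-array median on wild-type replicate 6 and on double-knockout replicates 1 and 2, and 1 on wild-type replicate 1 and double-knockout replicate 3.

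**Figure D3:**
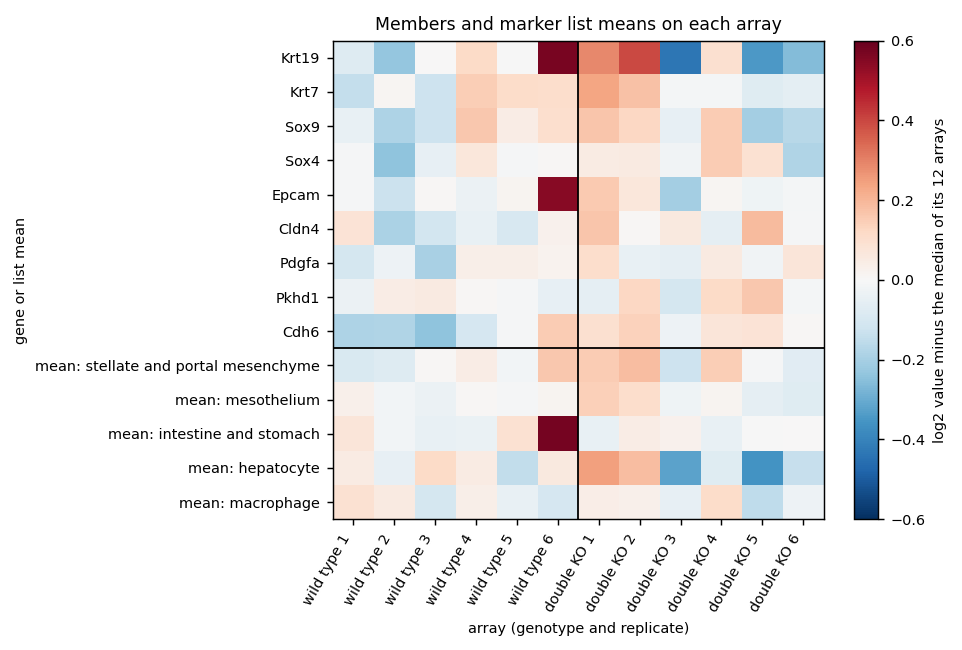
Log2 value minus the median of its 12 arrays (colour) for the 9 members and 5 marker list means (vertical axis) on each array (horizontal axis). Krt19 is red on wild-type replicate 6 and double-knockout replicates 1 and 2, where the mean of the stellate and portal mesenchyme list is also red, and blue on double-knockout replicates 3, 5 and 6.

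Other cells of liver or neighbouring organs also use these genes, so the members were set against the means of 6 marker lists, 54 relations in all. Pancreas means fell into separate sets of arrays, split here at the largest gap. A pooled r for that list is given only for Cdh6 and Pdgfa, beside the r within the larger set. Krt19 and the 12 genes of stellate cells and portal mesenchyme, the connective tissue around ducts, were the 1 relation past the threshold (r = 0.88, permutation p = 0.00017, adjusted p = 0.0092; rho = 0.89, permutation p = 0.00031, adjusted p = 0.017). It held within both genotypes, with r = 0.96 among wild-type and 0.95 among double-knockout arrays, and was 0.82 without wild-type replicate 6 and double-knockout replicate 2. The list mean itself ran from 9.06 to 9.31 in wild type and from 9.03 to 9.34 in the double knockout. With genotype means removed, r with Krt19 was 0.91 for Acta2, smooth muscle actin, 0.84 for Eln, elastin, 0.81 for Dcn, decorin, and 0.49 for Col1a1, a collagen, but 0.05 for Thy1 and for Reln. Epcam gave r = 0.67 with this list (permutation p = 0.0020, adjusted p = 0.054; rho = 0.76, permutation p = 0.0060, adjusted p = 0.11), and 0.74 without wild-type replicate 6 and double-knockout replicate 2. Sox9 and the mesothelium list, whose surface cells also carry keratins, gave r = 0.74 (permutation p = 0.0031, adjusted p = 0.056), and 0.75 without double-knockout replicates 1 and 2. Their rho was 0.81 (permutation p = 0.0023, adjusted p = 0.063). Krt19 and Krt7 gave r = 0.69 and 0.70 with mesothelium (permutation adjusted p = 0.089 for both), and 0.63 and 0.30 without the same arrays. With the mesenchyme list, Sox9 gave r = 0.745, Cdh6 0.66 and Krt7 0.64 (permutation adjusted p = 0.089, 0.15 and 0.15). Without wild-type replicate 6 and double-knockout replicate 2 these r values were 0.71, 0.485 and 0.54.

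Some gut genes were high on 1 array. Of the 20 measured genes of the intestine and stomach list, wild-type replicate 6 was the highest of the 12 arrays for 10, and 4 of these, Alpi, Fabp2, Lct and Lgals4, were over 1 log2 unit above the next array. Fabp2, the intestinal fatty acid binding protein, measured 10.17 there, against 7.01 to 8.34 on the other wild-type arrays and 6.83 to 7.39 on the double-knockout arrays. Alpi, the intestinal alkaline phosphatase, measured 8.96, against 6.28 to 6.89 and 6.29 to 6.72. For the other 10 genes, among them Sis, Tff1 and Gkn3, that array was not the highest. For Krt20 it was the lowest of the 12, at 6.56 against 6.75 to 7.51 and 6.57 to 6.92. Olfm4 measured 11.4 there, against 11.4 to 11.83 and 11.32 to 11.56. Epcam and the intestine and stomach mean gave r = 0.83 over 12 arrays (permutation p = 0.052, adjusted p = 0.23; rho = 0.22, permutation p = 0.50, adjusted p = 0.77), and -0.20 without wild-type replicates 5 and 6. Krt19 gave 0.53 and -0.19 in the same way (permutation p = 0.067, adjusted p = 0.26; rho = 0.01, permutation p = 0.97, adjusted p = 0.99). Both relations rest on that array. The part of gut RNA in the Epcam value of that array was not tested. Kidney genes, which would accompany Pkhd1 and Cdh6 from that organ, had list means of 6.64 to 6.77 in wild type and 6.66 to 6.77 in the double knockout. Of the 11 measured, 9 had higher double-knockout means, beside 59.0% of all genes. The most variable kidney genes, Nphs1 and Kap, spanned 6.86 to 7.17 and 5.17 to 5.60. With the kidney mean, Cdh6 gave r = 0.04 over 12 arrays (permutation p = 0.90, adjusted p = 0.92). Its r was -0.16 within wild type and -0.45 within the double knockout. For Pkhd1 the r over 12 arrays was -0.18 (permutation p = 0.58, adjusted p = 0.78). The part of kidney RNA in the Cdh6 values was not tested. Macrophage means lay between 9.65 and 9.84 in wild type and 9.60 and 9.86 in the double knockout, with Clec4f and Vsig4 the most variable genes. In the exocrine pancreas list the digestive enzyme gene Ctrb1 ran from 7.46 to 13.43 over the 12 arrays and Pnliprp1, a lipase relative, from 6.60 to 11.81 within the double knockout. Pdgfa measured 8.54 to 8.71 on the 4 arrays low for that list and 8.69 to 8.84 on the other 8, where its r with the list mean was -0.52. Over all 12 arrays that r was 0.62 (permutation p = 0.028, adjusted p = 0.15). The rho was 0.57 (permutation p = 0.055, adjusted p = 0.26).

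**Figure D4:**
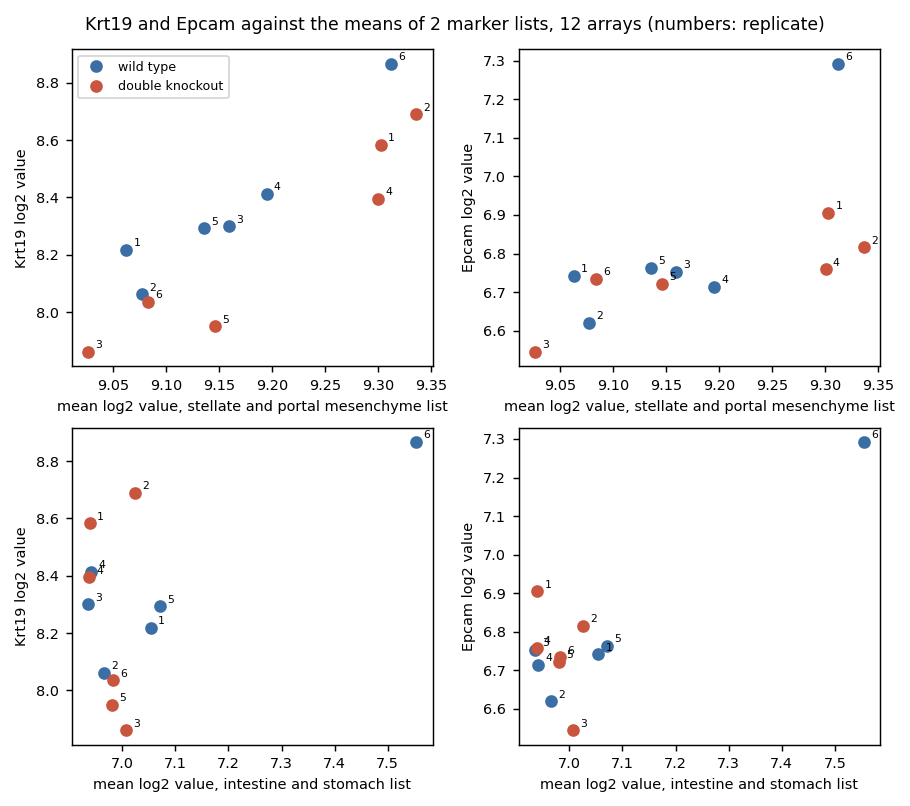
Log2 value of Krt19 and Epcam (vertical axes) against the mean log2 value of 2 marker lists (horizontal axes) on the 12 arrays, wild type in blue, double knockout in red, with replicate numbers. Krt19 rises with the stellate and portal mesenchyme mean in both genotypes (r = 0.88). The relation of Epcam to the intestine and stomach mean did not hold without wild-type replicates 5 and 6 (r = -0.20).

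The hepatocyte list was added after the values were seen. Its mean ran from 12.33 to 12.59 in wild type and from 12.11 to 12.72 in the double knockout, with double-knockout replicates 3 and 5 lowest, and all 8 genes had lower double-knockout means with none past the adjusted threshold. Its spread came mostly from Tat and Pck1, enzymes induced around birth, which ran from 7.54 to 9.88 and from 7.50 to 9.28 within the double knockout. The mean of the other 6 genes spanned 0.15 over the 12 arrays. Krt19 gave r = 0.78 with the list mean (permutation p = 0.0034, adjusted p = 0.060; rho = 0.82, permutation p = 0.0018, adjusted p = 0.032, over 18 added relations). Within the double knockout r was 0.95, within wild type 0.34, and without those 2 arrays 0.62. By gene, r with Krt19 over the 12 arrays was 0.79 for Tat and 0.63 for Pck1, and it was 0.85 for the mean of the other 6. Singly, those 6 ran from 0.14 for Trf to 0.85 for Serpinc1. Within wild type and within the double knockout, the mean of the 6 gave 0.86 in both. Trf gave 0.92 and -0.76 in that order, and Pck1 -0.11 and 0.95. Sox9 followed the interquartile range of the arrays within the double knockout with r = 0.99 but within wild type with r = -0.04, and over all 12 with r = 0.56 (permutation p = 0.062, adjusted p = 0.39; rho = 0.67, permutation p = 0.021, adjusted p = 0.18), or 0.69 without wild-type replicate 6 and double-knockout replicate 5.

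For each member the 3 genes with the most similar pattern were found among all genes, by Pearson r over the 12 arrays after each genotype's mean was removed. Being the highest of so many, these values describe likeness on these arrays and nothing more. Epcam was nearest to Cdhr5, a cadherin of the gut brush border (0.93), Mme (0.92) and Lgals4, a galectin of gut epithelium (0.91), all with their means higher in wild type. Without wild-type replicate 6 these r values were 0.64, 0.65 and 0.55. Krt19 was nearest to Igfbp5 (0.94), Tm6sf2 (0.93) and Itih4, a plasma protein of hepatocytes (0.93). Cdh6 was nearest to Actg2, an actin of smooth muscle (0.93), Traf3ip2 (0.92) and Spon1 (0.92), with 0.83, 0.83 and 0.89 when wild-type replicate 6 was left out. Sox9 lay with Irgm1 (0.94), Elk3 (0.94) and Gstp3 (0.93), and Sox4 with Tshz2 (0.94), Tnc, a matrix protein (0.86), and Kirrel (0.86). Krt7 lay with Rsl1 (0.93), Zfp781 (0.89) and Tshz1 (0.89), and Cldn4 with Zfp473 (0.94), BC048644 (0.90) and Cstad (0.89). Pdgfa lay with Rfx5 (0.87), Rprd1a (0.85) and Cyb5b (0.83), and Pkhd1 with Mir361 (0.86), Zfp804a (0.85) and Vmn2r79 (0.82).

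The signals that direct duct formation showed no called gene. Of 21 Notch and TGF-beta genes, all measured, 10 double-knockout means were higher and 11 lower, with a median log2 difference of -0.0010, beside 0.01 over all genes, and 0 passed limma's adjusted threshold or had an unadjusted p under 0.05. Jag1, the Notch ligand of portal mesenchyme, had log2 values of 7.74 ± 0.07 (wild type) and 7.79 ± 0.07 (double knockout; SD, n = 6 each). Its receptor Notch2 measured 9.61 ± 0.12 and 9.50 ± 0.09, a difference of -0.10, and the target Hes1 8.03 ± 0.12 and 7.98 ± 0.13 (SD, n = 6 each). The smallest p values were those of Hey2, a Notch target, at 0.16 with a standard error of 0.08, Tgfbr2, a TGF-beta receptor, at -0.10 and Tgfb1 at -0.13, with limma unadjusted p of 0.050, 0.053 and 0.083. Tgfb2, a ligand expressed near the ductal plate, differed by 0.10.

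Of the regulators of the duct and hepatoblast programme, 15 genes were measured. Among these 7 had higher and 8 lower means, with a median of -0.03 and none past the adjusted threshold. Hhex, a homeobox factor needed for liver bud and duct development, measured 8.66 ± 0.10 and 8.50 ± 0.16 (log2, SD, n = 6 each; limma unadjusted p = 0.043, adjusted p = 0.99). Wwtr1, which encodes the Hippo effector TAZ, differed by 0.12 and Elf3, an epithelial factor, by 0.11. Onecut1, a factor that shapes the ductal plate, measured 10.44 ± 0.11 and 10.44 ± 0.14 (SD, n = 6 each), a difference of 0.0073.

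Further genes of duct epithelium were measured for 29 of 32, with 15 higher and 14 lower, a median of 0.0072 and 0 at limma's adjusted threshold or at unadjusted p under 0.05. The smallest p belonged to Anxa4, Cldn6 and Dcdc2a, with differences of 0.09, 0.08 and 0.07. Krt8 and Krt18, keratins that hepatocytes share with duct cells, differed by -0.03 and -0.04, the claudins Cldn3 and Cldn7 by -0.02 and 0.0072, the cadherin Cdh1 by -0.07 and the chloride channel Cftr by 0.10. Krt23, another keratin of this list, spanned 6.57 to 8.08 within the double knockout and had the list's highest r with Krt19, 0.79 with genotype means removed; it is named after its values were seen. Across the 29 genes that r ran from -0.31 to 0.79.

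Hepatoblast genes outside the 10 were measured for 13 of 13. Among them 5 had higher and 8 lower means, with a median of -0.03 and none past the adjusted threshold. Afp, the fetal albumin relative, measured 13.84 ± 0.05 in both genotypes, and Dlk1, a hepatoblast surface protein, 12.19 ± 0.12 and 12.13 ± 0.19 (log2, SD, n = 6 each). Mdk, the growth factor midkine, measured 8.10 ± 0.18 and 8.29 ± 0.15 (SD, n = 6 each), a difference of 0.20 (limma unadjusted p = 0.038, adjusted p = 0.99). Igf2bp3 and Lin28b, RNA-binding proteins of fetal cells, differed by -0.12 and -0.10.

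The partners of Pdgfa and of osteopontin were measured for 12 of 12 genes, 7 higher and 5 lower, with a median of 0.03 and 0 at limma's adjusted threshold or at unadjusted p under 0.05. Pdgfra, the receptor of Pdgfa, measured 8.52 ± 0.15 and 8.64 ± 0.17 (log2, SD, n = 6 each), a difference of 0.12 with a standard error of 0.08. Pdgfrb, the receptor of Pdgfb, differed by 0.04, Pdgfb by 0.05, Cd44, an osteopontin receptor, by -0.02 and Itgb5, an integrin chain that binds it, by -0.06.

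**Figure D5:**
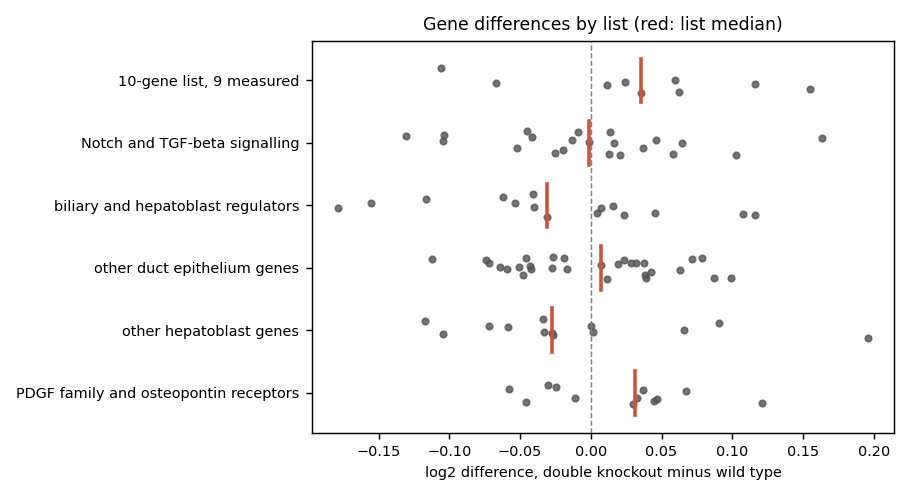
Log2 difference, double knockout minus wild type (horizontal axis), of each measured gene in the 10-gene list and 5 further lists (vertical axis), with list medians in red. All list medians lie between -0.03 and 0.04, and no gene shown passed the adjusted threshold.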

How the data were processed

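RNA of whole livers was isolated with Trizol, and cDNA was labelled with a kit for whole transcripts, per the labels' protocols. The authors deposited log2 values per probe set from 12 Affymetrix arrays, processed with Affymetrix Expression Console per the submitters' processing notes. Its version, the background correction and the summarisation are not stated there, and the scale was read from the values, which reach 14.45. Detection above background was not analysed here.

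Of 28815 probe sets, 21780 name 1 gene in the platform table, 1605 several, and 5430 are unlisted; 21689 of the first were found by gene ID in the GRCm38.p6 gene table, which updated symbols. A gene's probe set of highest mean was used (998 genes had more than 1; each member had 1). Genotypes were compared with lmFit and eBayes of limma 3.58.1 (R 4.3.3) over 19935 genes, 2-sided, Benjamini-Hochberg, adjusted p under 0.05; the script was tested on simulated data. Relations across arrays used Pearson r and Spearman rho with 2-sided permutation tests (100000 resamples) in Python 3.11.15, adjusted over each family. The members and lists were chosen with earlier results of these data known. Named genes were the members, the 3 of smallest p in each pathway list, genes named for their role, the 2 most variable of each other list where used, and the 3 nearest genes of each member. Also named, after their values were seen, were Krt23, Dcn, Col1a1, Thy1, Reln, Lct, Lgals4, Sis, Tff1, Gkn3, Krt20, Olfm4, Trf and Serpinc1. The labels do not say that arrays come from separate fetuses, so p-values measure the spread between these samples. No arrays were identical (highest correlation 0.998). Precision is limited by 6 arrays per genotype. Alternatives were array weights, quantile normalization, a robust trended prior, leaving out genes of low mean, averaged probe sets, the replicate block, list means or array spread as covariates, and leaving out each array.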

Additional observations from a re-analysis of the deposited data

Results flagged for a closer look

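Epcam on wild-type replicate 6 measured 7.2919 (log2), against 6.62 to 6.76 on the other 5 wild-type arrays. The same array had a mean of 7.5538 for intestine and stomach genes, against 6.94 to 7.07 on the others. In both, the gap to the next array was a large share of the group's range, 0.787 and 0.780, above Dixon's 95% critical value for 6 samples. Chance flags about 1 in 20 groups, and 2 of the 32 groups looked at were marked.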

How the results depend on the processing

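No member passed in any of the 21 alternatives, and the median of the member differences ran from 0.0187 to 0.0642 without 1 array and from 0.019 to 0.0509 otherwise. Among genes above the median gene mean, 4 members were tested. The Epcam difference became 0.0010 with array weights and 0.0331 with the intestine and stomach covariate, and the Sox9 difference -0.0080 with the exocrine pancreas covariate, where 1 gene, Npy, was called higher. Without 1 array, Krt7 ran from -0.0145 to 0.0507, Sox9 from -0.0243 to 0.0524 and Epcam from -0.106 to 0.0283; genes called lower numbered 2 to 6, with 6 without double-knockout replicate 2, and genes called higher 0 to 1, with 1 without wild-type replicate 1 or 3. The other 6 members kept their sign in all alternatives run for them, with adjusted p of 0.57 or more. The cause of these changes was not tested. Same-numbered arrays deviated together with correlations of 0.166 to 0.49 for 5 of the 6 numbers, and 4 of 6 wild-type arrays were closest to the double-knockout array of their number, a hint from the data that numbers may be shared. Replicate 2 gave -0.182 and the labels do not say what a number marks, so the numbers were not taken as pairs. With the replicate block 2 genes were called lower, Pyurf no longer among them, and 0 members passed. Limma's unadjusted p was then 0.0295 for Cdh6 (difference 0.155) and 0.0472 for Cldn4 (0.116), with an adjusted p of 0.914 for both. The share of all genes under 0.05 before adjustment was not counted for that fit. The interquartile range covariate, added after seeing the data, gave 0.1485 for Cdh6 and -0.0724 for Krt19. The number of arrays and the unknown background limit what a low gene can show.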
